A study of Rattus norvegicus with 16 samples.

Results

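The vascular endothelial growth factor (VEGF) and angiopoietin axis was followed through 9 genes of the rat heart, Vegfa, Vegfb, Vegfc, Flt1, Kdr, Nrp1, Tek, Angpt1 and Angpt2. A probe set was taken as a member when the platform annotation gave it exactly 1 of these symbols, which selected 14 of the 31042 probe sets tested and 9 of the 14217 genes they name. Vegfa, Kdr and Nrp1 had 2 probe sets each, Flt1 had 3 and the other 5 genes had 1, and the probe set of highest mean level over the 16 arrays stood for its gene. The selection rule used the symbols alone, but the 9 genes themselves were chosen with earlier results of these data known.

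RNA of the left ventricle was measured in 16 female rats aged about 7 months, with 1 Affymetrix RAE 230 2.0 array per rat. The rats belonged to generation 16 of 2 lines, both derived from the N:NIH stock and selected on a treadmill test at about 11 weeks of age, one for high running capacity (High Capacity Runners, HCR) and one for low (Low Capacity Runners, LCR). In each line 4 rats stayed sedentary and 4 were trained for 8 weeks on a treadmill inclined by 25 degrees, in 1.5 h interval sessions on 5 days per week. Work bouts of 8 min were run at 85 to 90% of the maximal oxygen uptake and recovery bouts of 2 min at 50 to 60%. All 4 groups thus share stock, labelled sex, age and tissue, and high and low capacity are each represented by a single selected line. The comparisons ask whether the inborn difference in capacity, the training, or their combination goes with another level of the axis in the myocardium.

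VEGF-A is secreted by cardiomyocytes and other cells under low oxygen and drives the growth and permeability of capillaries through the receptor tyrosine kinase VEGFR2, the product of Kdr. VEGFR1, the product of Flt1, binds VEGF-A, VEGF-B and placental growth factor tightly and can hold ligand away from VEGFR2, and neuropilin-1 presents VEGF-A to VEGFR2 as a co-receptor. Tie2, the product of Tek, keeps endothelium quiescent when bound by angiopoietin-1, while angiopoietin-2 can act as its antagonist in vessels that remodel.

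The deposited values are log expression values whose base is not stated and was taken as log2, so that a difference of 1 would be a doubling of signal. Probe set medians lay between 5.85 and 5.95 on every array, and arrays correlated with each other at r of 0.984 to 0.995. The interquartile range of an array was 1.97 to 2.10 in HCR sedentary rats and 2.06 to 2.27 in the other 12. The array labelled HCR sedentary rat 5 stood apart before any result: its 4 Xist probe sets, which read the X-inactivation transcript of female cells, lay between 3.76 and 4.94, against 7.56 to 10.34 in the other 15 rats, which goes against its label as a female. That array is meant by rat 5 wherever no group is named. The line differences in sedentary rats and the training differences in HCR of the 9 genes, and the calls and marker scores that contain HCR sedentary rats, are therefore given with and without it. Of the endothelial markers listed, 14 of 16 were measured, with mean levels from 7.30 for Erg to 9.57 for S1pr1, and the 7 measured cardiomyocyte markers lay between 12.15 for Ryr2 and 14.30 for Myl2, so the tissue carried RNA of both cell types. In a bulk sample, fewer cells of a type and less RNA per cell cannot be told apart.

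RefSeq promoter entries on the GRCr8 build were found for 6 of the 9 genes, all but Tek, Angpt1 and Angpt2. The 250 bases ahead of the annotated start are shown 5′ to 3′ on the strand of the gene for Vegfa, the gene with the lowest p-value among the members, and for Kdr and Nrp1, the pair whose levels ran closest together. Capitals mark the hypoxia response core (ACGTG or GCGTG, which read CACGT or CACGC on the opposite strand) and the GC box (GGGCGG, or CCGCCC on the opposite strand), searched on both strands with overlaps allowed.
Vegfa, chr9:22452604-22452853, plus strand: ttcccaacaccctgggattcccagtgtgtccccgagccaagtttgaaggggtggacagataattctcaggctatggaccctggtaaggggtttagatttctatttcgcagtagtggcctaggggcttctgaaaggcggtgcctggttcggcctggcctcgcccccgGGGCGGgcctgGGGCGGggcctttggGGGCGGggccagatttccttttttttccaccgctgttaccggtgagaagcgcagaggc
Kdr, chr14:32571813-32572062, plus strand: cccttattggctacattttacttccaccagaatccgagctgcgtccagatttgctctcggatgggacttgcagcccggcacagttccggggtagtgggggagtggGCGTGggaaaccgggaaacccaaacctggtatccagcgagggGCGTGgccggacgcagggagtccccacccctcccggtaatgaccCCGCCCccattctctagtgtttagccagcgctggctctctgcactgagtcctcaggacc
Nrp1, chr19:73256307-73256556, plus strand: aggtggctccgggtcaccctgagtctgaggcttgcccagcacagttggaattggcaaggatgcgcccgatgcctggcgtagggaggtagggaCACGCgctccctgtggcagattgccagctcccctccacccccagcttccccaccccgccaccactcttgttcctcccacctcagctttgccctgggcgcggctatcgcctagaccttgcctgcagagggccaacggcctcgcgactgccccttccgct
The Vegfa window, taken at the more upstream of 2 listed starts, held 3 GC boxes, at positions -84, -73 and -58, and 0 cores. That of Kdr held 2 cores, at -145 and -103, and 1 GC box at -59, whereas that of Nrp1 held 1 core at -158 and 0 GC boxes. Over the 6 genes, 4 windows held a core and 5 a GC box, and over all 33469 RefSeq windows of this length the shares were 36.7% and 30.5%. A match describes these letters only, and no match says nothing about sites outside the window.

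None of the 14 member probe sets passed an adjusted p of 0.05 in any of the 7 comparisons (limma, Benjamini-Hochberg over all 31042 probe sets). For the line difference in sedentary rats the same call was made for 4.99% of all probe sets, in trained rats for 0.0966%, and for the line difference averaged over both training states for 3.84%. Training called 0% of probe sets in HCR, 0.00322% in LCR and 0.00644% over both lines, and the test of whether the lines responded differently called 0%. At an unadjusted p under 0.05, 1 member passed in sedentary rats (Vegfa), 1 in trained rats (Kdr), 1 for training in HCR (Vegfa), 0 for training in LCR, 1 for the difference between the training responses (Vegfa), 2 for the line over both states (Kdr and Nrp1) and 0 for training over both lines. The shares of all probe sets at that unadjusted level were, in the same order, 27.7%, 7.33%, 13.9%, 5.57%, 9.88%, 24.1% and 9.24%. Counted over the 14 probe sets, the share of members was below that of the array in all 7 comparisons, narrowly so in trained rats. Counted over the 9 genes, 1 passed in trained rats and 1 for the difference between the training responses. Of all 14217 genes 1194 and 1515 passed there, shares below that of the members. The values that follow describe levels and intervals of genes that did not pass after adjustment.

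**Figure D1:**
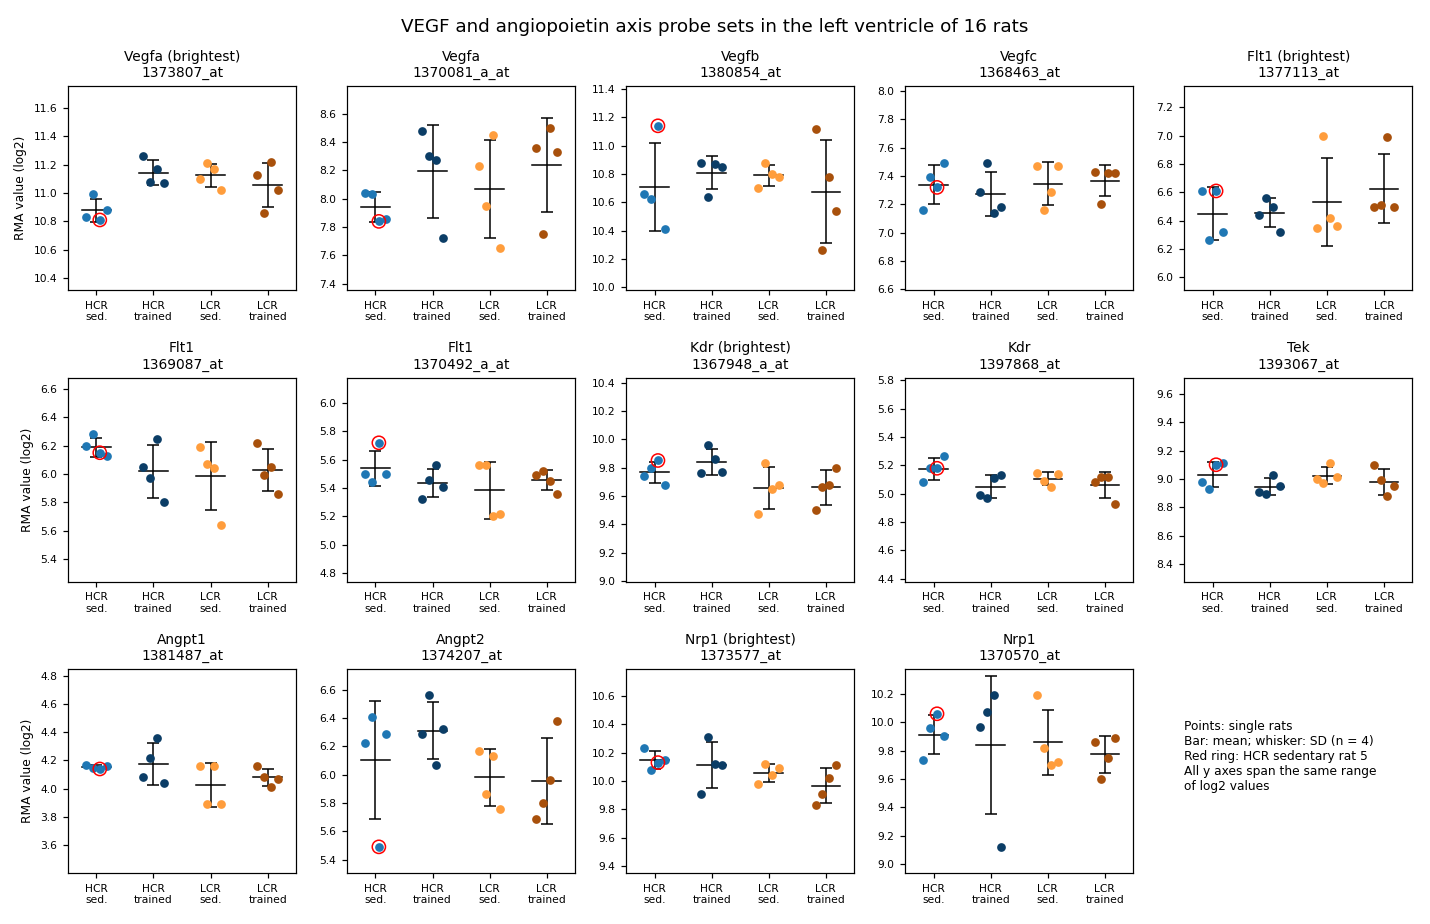
Log2 level (vertical axis) of each of the 14 member probe sets in each of the 16 rats, by group (horizontal axis); points are rats and bars the group mean with its SD, n = 4. In the panel of Vegfa 1373807_at the 4 HCR sedentary rats sit between 10.81 and 10.99, below all HCR trained and LCR sedentary rats, whereas in the other panels the groups compared overlap.

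Among the ligands, Vegfa was the only gene with groups that did not overlap, and it was so in the 2 comparisons that contain the HCR sedentary rats. On probe set 1373807_at, HCR sedentary rats 3, 4, 5 and 6 read 10.83, 10.99, 10.81 and 10.88 in log2 units. HCR trained rats 3, 4, 5 and 6 read 11.26, 11.08, 11.17 and 11.07. LCR sedentary rats 2, 3, 5 and 6 read 11.10, 11.21, 11.17 and 11.02, and LCR trained rats 1, 2, 3 and 4 read 11.13, 10.86, 11.22 and 11.02. All 4 HCR sedentary values thus lay below every HCR trained and every LCR sedentary value, while LCR trained rat 2, at 10.86, fell inside the HCR sedentary range. Group means were 10.88 ± 0.081 (SD, n = 4) in HCR sedentary, 11.15 ± 0.0885 in HCR trained, 11.13 ± 0.0841 in LCR sedentary and 11.06 ± 0.155 in LCR trained rats.

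In sedentary rats the HCR value of Vegfa minus the LCR value was -0.25 ± 0.08 (SE; 95% confidence interval -0.41 to -0.09), a ratio of 0.842, with an adjusted p of 0.0621 in the limma fit. Separation of the 4 arrays of each group was common in this comparison, at 18.3% of all probe sets, and 1 of the 14 member probe sets showed it. Between the lines in trained rats and for training in LCR, 0 of 14 member probe sets were separated, against 3.14% and 2.82% of all probe sets. In trained rats the difference was 0.08 (95% interval -0.07 to 0.24, adjusted p = 0.895), with overlapping groups. Training within HCR gave 0.27 ± 0.08 (0.11 to 0.43), 1.20-fold, with an adjusted p of 0.21, and 8% of all probe sets were as fully separated there. Training within LCR gave -0.07 (-0.22 to 0.09, adjusted p = 0.992). The difference between these responses, tested as the interaction, was 0.33 ± 0.11 (0.11 to 0.56, adjusted p = 0.475). Both HCR comparisons use the same 4 HCR sedentary arrays and are not separate lines of evidence.

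Without HCR sedentary rat 5 the sedentary line difference of Vegfa was -0.23 ± 0.08 (adjusted p = 0.159) the HCR training difference 0.25 ± 0.08 (adjusted p = 0.467) and the interaction 0.31 ± 0.11 (adjusted p = 0.672). The sedentary line difference came near the threshold from both sides. It passed in 5 of 24 alternative analyses, among them with arrays centred on their medians (-0.31, adjusted p = 0.0285), with array weights (0.0279), with only the 2 groups in the fit (0.0477), and without LCR trained rat 2 (0.0399), an array that is not part of the comparison but of the shared spread. Quantile normalization of the summarised values brought the difference to -0.16 (adjusted p = 0.244). The interquartile range of the arrays moved with Vegfa over the 16 rats (Pearson r = 0.552, permutation p = 0.0268, 0.241 after adjustment over 9 genes; Spearman rho = 0.506, permutation p = 0.0477). The r was 0.413 without HCR sedentary rats 4 and 5, the arrays of most extreme range, 0.431 without rat 5 alone and 0.108 after each group's mean was taken off. Its part in the Vegfa difference was not tested.

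The other Vegfa probe set, 1370081_a_at, gave values that overlapped in all 4 pairs of groups. HCR sedentary rats lay between 7.84 and 8.04, HCR trained between 7.72 and 8.48, LCR sedentary between 7.65 and 8.45 and LCR trained between 7.75 and 8.50. Its sedentary line difference was -0.12 ± 0.18 (-0.51 to 0.26, adjusted p = 0.677) and its HCR training difference 0.25 ± 0.18 (-0.14 to 0.63, adjusted p = 0.542). Without rat 5 these were -0.09 ± 0.20 (adjusted p = 0.826) and 0.21 ± 0.20 (adjusted p = 0.756). Its intervals hold the values of the brighter probe set, and its SE was 0.18 against 0.08. Over the 16 rats both probe sets ran together (r = 0.641, permutation p = 0.00838, adjusted 0.0503 over 6 pairs of probe sets of one gene; rho = 0.671, permutation p = 0.00536, adjusted 0.0322). The r was 0.702 within groups and 0.655 without HCR sedentary rats 3 and 5.

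Vegfb, whose product binds VEGFR1 and is abundant in muscle that burns fat, read 10.66, 10.62, 11.14 and 10.41 in HCR sedentary rats 3 to 6. HCR trained rats lay between 10.64 and 10.88, LCR sedentary between 10.70 and 10.88, and LCR trained rats 1 to 4 read 11.12, 10.26, 10.78 and 10.54. The highest HCR sedentary value belonged to rat 5, and the groups overlapped throughout. The sedentary line difference was -0.08 ± 0.16 (-0.41 to 0.24, adjusted p = 0.742) with that rat and -0.23 ± 0.14 (adjusted p = 0.368) without it. The HCR training difference likewise went from 0.11 ± 0.16 (adjusted p = 0.78) to 0.25 ± 0.14 (adjusted p = 0.611). In trained rats the line difference was 0.14 (-0.19 to 0.47), and training in LCR gave -0.12 (-0.45 to 0.21). The interaction was 0.22 ± 0.22 (-0.24 to 0.69, adjusted p = 0.733) with rat 5 and 0.37 ± 0.20 (adjusted p = 0.683) without it.

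Vegfc, a ligand of the lymphatic receptor VEGFR3, varied little, from 7.14 to 7.49 over HCR trained rats, 7.16 to 7.49 over HCR sedentary, 7.16 to 7.47 over LCR sedentary and 7.20 to 7.43 over LCR trained rats. Its sedentary line difference was -0.01 ± 0.09 (-0.21 to 0.19, adjusted p = 0.952), and its HCR training difference was -0.06 (-0.26 to 0.13), against 0 ± 0.10 (adjusted p = 0.989) and -0.07 ± 0.10 (adjusted p = 0.848) without rat 5. The line difference in trained rats was -0.09 (-0.29 to 0.11) and the training difference in LCR 0.02 (-0.18 to 0.22). The farthest that any of these 4 intervals, with all rats, reached from 0 was -0.29.

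Among the receptors, Kdr was represented by 1367948_a_at. It read 9.74, 9.80, 9.85 and 9.68 in HCR sedentary rats 3 to 6 and 9.76, 9.96, 9.86 and 9.77 in HCR trained rats 3 to 6. In LCR sedentary rats 2, 3, 5 and 6 it read 9.47, 9.83, 9.65 and 9.68, and in LCR trained rats 1 to 4 it read 9.50, 9.66, 9.68 and 9.80. The 2 lowest values of all, 9.47 and 9.50, were from LCR rats, but LCR sedentary rat 3 and LCR trained rat 4 reached into the HCR range. The line difference was 0.11 ± 0.08 (-0.05 to 0.28, adjusted p = 0.358) in sedentary and 0.18 ± 0.08 (0.01 to 0.34, adjusted p = 0.652) in trained rats, both positive. Averaged over both training states it was 0.14 ± 0.06 (0.03 to 0.26), 1.10-fold, with an adjusted p of 0.131. Training gave 0.07 (-0.10 to 0.23) in HCR and 0 (-0.16 to 0.17) in LCR. Without rat 5 the line difference was 0.09 ± 0.09 (adjusted p = 0.586) in sedentary rats and 0.13 ± 0.06 (adjusted p = 0.232) over both states, and HCR training gave 0.10 ± 0.09 (adjusted p = 0.742).

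The other Kdr probe set, 1397868_at, had a mean below 5.9, the median of all probe sets, and did not follow the brighter one over the rats (r = -0.266, permutation p = 0.32, adjusted 0.481; rho = -0.144, permutation p = 0.593; r = -0.333 without LCR sedentary rat 2 and LCR trained rat 1). It lay between 5.08 and 5.27 in HCR sedentary, 4.97 and 5.13 in HCR trained, 5.05 and 5.15 in LCR sedentary and 4.93 and 5.12 in LCR trained rats. Its HCR training difference was -0.13 ± 0.06 (-0.26 to 0, adjusted p = 0.362), and -0.13 ± 0.07 (adjusted p = 0.589) without rat 5.

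Flt1 was read by 3 probe sets. On the brightest, 1377113_at, HCR sedentary rats lay between 6.26 and 6.61 and HCR trained rats between 6.32 and 6.56. LCR sedentary rats 2, 3, 5 and 6 read 6.35, 7.00, 6.42 and 6.36, and LCR trained rats 1 to 4 read 6.50, 6.51, 6.99 and 6.50. The rats numbered 3 in both LCR groups stood above the rest, and the groups otherwise coincided. The sedentary line difference was -0.08 ± 0.14 (-0.38 to 0.22, adjusted p = 0.744) and that in trained rats -0.17 ± 0.14 (-0.47 to 0.13, adjusted p = 0.873). The HCR training difference was 0 ± 0.14 (-0.30 to 0.30, limma adjusted p = 0.994). Without rat 5 the sedentary difference was -0.13 ± 0.15 (adjusted p = 0.65) and the HCR training difference 0.06 (adjusted p = 0.928).

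The Flt1 probe sets 1369087_at and 1370492_a_at gave sedentary line differences of 0.21 ± 0.11 (-0.03 to 0.44, adjusted p = 0.232) and 0.16 ± 0.09 (-0.03 to 0.34, adjusted p = 0.26). Without rat 5 these were 0.22 ± 0.12 (adjusted p = 0.321) and 0.10 ± 0.09 (adjusted p = 0.559). HCR training gave -0.17 ± 0.11 and -0.10 ± 0.09 with all rats (limma adjusted p = 0.486 and 0.612). Without rat 5 it gave -0.18 (adjusted p = 0.652) and -0.04 (adjusted p = 0.902). HCR sedentary rats read 6.13 to 6.28 on the first and 5.44 to 5.72 on the second, LCR sedentary rats 5.64 to 6.19 and 5.20 to 5.56, with overlap in each. These 2 correlated over the 16 rats at r = 0.579 (permutation p = 0.0187, adjusted 0.0562; rho = 0.55, permutation p = 0.0298; r = 0.408 without LCR sedentary rat 6 and HCR trained rat 6). With the brightest probe set they correlated at r = 0.0806 and 0.323 (permutation p = 0.772 and 0.222; rho = 0.0471 and 0.406; r = 0.155 and 0.402 without the rats numbered 3 of both LCR groups). A direction for Flt1 as a gene cannot be given from these probe sets. The receptor has a soluble form made from a shorter transcript, and which form each probe set reads was not tested.

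Nrp1, the co-receptor, read 10.23, 10.08, 10.13 and 10.15 in HCR sedentary rats 3 to 6 on 1373577_at and 9.91, 10.31, 10.12 and 10.11 in HCR trained rats. LCR sedentary rats 2, 3, 5 and 6 read 9.98, 10.12, 10.04 and 10.09, and LCR trained rats 1 to 4 read 9.83, 9.91, 10.02 and 10.11. All 4 groups overlapped, with LCR trained rats reaching lowest. The line difference was 0.09 ± 0.08 (-0.08 to 0.25, adjusted p = 0.47) in sedentary rats, 0.15 ± 0.08 (-0.02 to 0.31, adjusted p = 0.743) in trained rats and 0.12 ± 0.05 (0 to 0.23, adjusted p = 0.205) over both states. Without rat 5 it was 0.09 ± 0.09 (adjusted p = 0.548) in sedentary rats and 0.12 ± 0.06 (adjusted p = 0.271) over both states. HCR training gave -0.03 ± 0.08 (-0.20 to 0.13, limma adjusted p = 0.875) with all rats and -0.04 (adjusted p = 0.908) without rat 5. The other Nrp1 probe set, 1370570_at, gave 0.06 ± 0.12 over both states (-0.21 to 0.32, adjusted p = 0.799), or 0.03 ± 0.13 (adjusted p = 0.906) without rat 5, and HCR trained rat 6 read 9.12 on it where the other 3 rats of its group lay between 9.97 and 10.19. Both probe sets were almost unrelated over the rats (r = 0.0746, permutation p = 0.781; rho = 0.224, permutation p = 0.405; r = -0.0505 without LCR trained rat 1 and HCR trained rat 4).

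Of the Tie2 branch, Tek itself had the narrowest range of the representative probe sets. Its values ran from 8.93 to 9.11 in HCR sedentary, 8.89 to 9.03 in HCR trained, 8.97 to 9.11 in LCR sedentary and 8.88 to 9.10 in LCR trained rats. The sedentary line difference was 0.01 ± 0.06 (-0.12 to 0.14, adjusted p = 0.953) and the trained one -0.03 ± 0.06 (-0.16 to 0.09, adjusted p = 0.966). Training gave -0.08 (-0.21 to 0.05) in HCR and -0.04 (-0.17 to 0.09) in LCR, and none of the 4 intervals reached farther from 0 than -0.21. Without rat 5 the sedentary line difference was -0.02 ± 0.07 (adjusted p = 0.907) and the HCR training difference -0.06 (adjusted p = 0.792).

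Angpt1, the activating ligand of Tie2, was dim, between 3.89 and 4.36 on the 16 arrays and below the median level of 5.9, a range in which a log2 difference understates a change in RNA. Its line difference was 0.13 ± 0.08 (-0.04 to 0.29, adjusted p = 0.285) in sedentary and 0.10 ± 0.08 (-0.07 to 0.26, adjusted p = 0.866) in trained rats. Training gave 0.02 (-0.14 to 0.19) in HCR and 0.05 (-0.11 to 0.22) in LCR. Without rat 5 the sedentary line difference was 0.13 ± 0.09 (adjusted p = 0.386) and the HCR training difference 0.02 (adjusted p = 0.961).

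Angpt2, the context-dependent antagonist, had the widest range of the representative probe sets. HCR sedentary rats 3 to 6 read 6.22, 6.41, 5.49 and 6.29, HCR trained rats 6.29, 6.56, 6.07 and 6.32, LCR sedentary rats 2, 3, 5 and 6 read 6.17, 5.86, 6.13 and 5.76, and LCR trained rats 1 to 4 read 5.69, 5.80, 5.96 and 6.38. The lowest value of all came from HCR sedentary rat 5. Of the 4 LCR trained rats, 3 lay below all HCR trained rats, while LCR trained rat 4, at 6.38, lay inside the HCR trained range. The line difference was 0.12 ± 0.18 (-0.26 to 0.50, adjusted p = 0.683) in sedentary rats, and 0.32 ± 0.15 (adjusted p = 0.235) without HCR sedentary rat 5. In trained rats, which do not include that array, it was 0.35 ± 0.18 (-0.03 to 0.74), 1.28-fold, with an adjusted p of 0.722. The HCR training difference was 0.21 ± 0.18 (-0.17 to 0.59) with and 0.01 ± 0.15 (adjusted p = 0.993) without rat 5, and that in LCR was -0.02 (-0.41 to 0.36). Over both training states the line difference was 0.24 ± 0.13 (adjusted p = 0.268) with and 0.34 ± 0.10 (adjusted p = 0.0951) without rat 5.

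**Figure D2:**
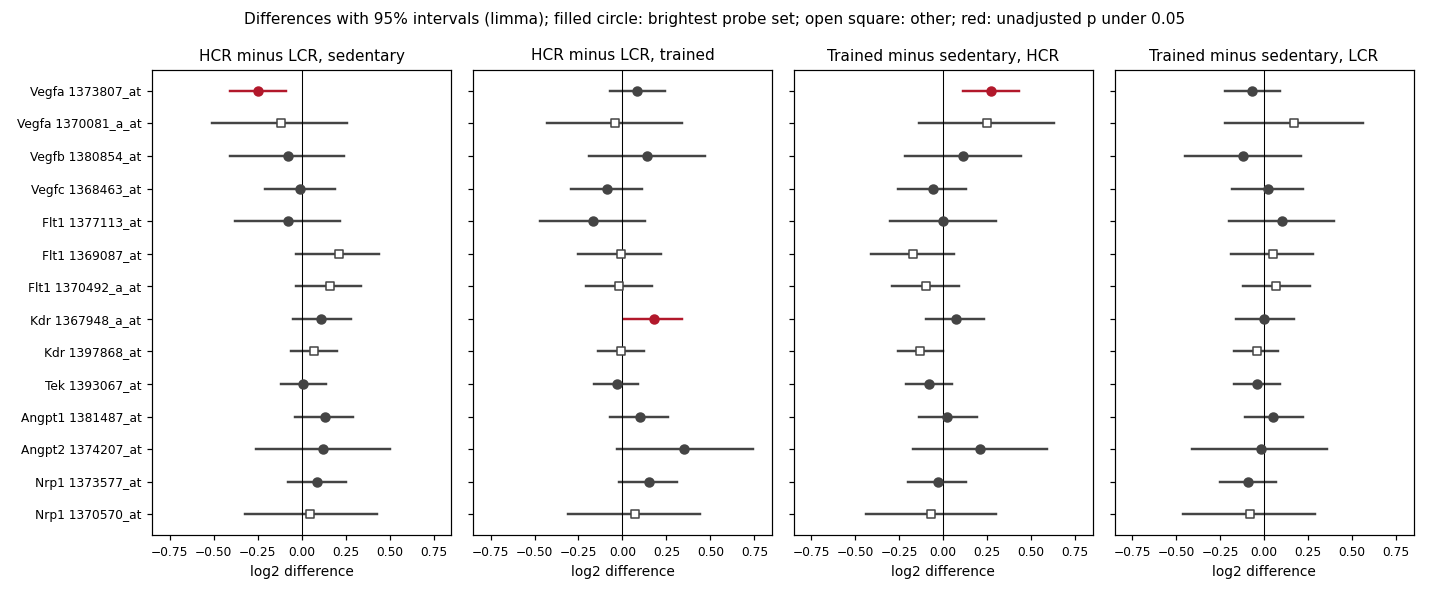
Log2 differences (horizontal axis) of the 14 member probe sets with 95% confidence intervals from the limma fit. The panels show HCR against LCR in sedentary and in trained rats, and trained against sedentary rats of either line. The intervals of Vegfa 1373807_at leave out 0 for the sedentary line difference (-0.25) and HCR training (0.27). That of Kdr 1367948_a_at does so for the trained line difference (0.18). None of the differences passed after adjustment.

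Taken gene by gene on the representative probe sets, 5 of 9 line differences were above 0 in sedentary rats and 6 of 9 in trained rats, with medians of 0.0067 and 0.098 against -0.018 and -0.0034 over all 14217 genes. Training differences were above 0 for 6 of 9 genes in HCR (median 0.024) and for 4 of 9 in LCR (median -0.023), where the medians of all genes were 0.0059 and -0.0045. Over all 14217 genes the shares above 0 were 46.4%, 48.6%, 51.9% and 48% in these 4 comparisons. The sedentary and HCR training comparisons share the HCR sedentary arrays and the others share arrays in the same way, so their values are set side by side and not correlated.

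Across the 16 rats, of the 36 pairs of representative probe sets, 17 had a positive and 19 a negative Pearson r, and 0 passed an adjusted permutation p of 0.05 over the 36, with 1 pair under 0.05 before adjustment. That pair was Kdr and Nrp1, the receptor and co-receptor whose promoters are printed above (r = 0.715, permutation p = 0.00203, adjusted 0.0731; rho = 0.697, permutation p = 0.00365, adjusted 0.131). It kept r = 0.696 after each group's mean was taken off and 0.603 without LCR sedentary rat 2 and LCR trained rat 1, the rats farthest from the Kdr median, and it was 0.712 without HCR sedentary rat 5. With quantile-normalized values it reached 0.799 (permutation adjusted p = 0.0072). The pair rests on 1 probe set per gene, and the probe sets of Kdr (r = -0.266) and of Nrp1 (r = 0.0746) did not run together. Vegfa and Vegfb had r = 0.382 (permutation p = 0.144, adjusted 0.719) and rho = 0.456 (permutation p = 0.0784). Their r was 0.403 after each group's mean was taken off. Without HCR sedentary rat 5 it was 0.737, above that of Kdr and Nrp1, so which pair ran closest depended on this array. Tek and Angpt2 had r = -0.496 (permutation p = 0.0513, adjusted 0.719; rho = -0.524, permutation p = 0.0396, adjusted 0.656; r = -0.739 without HCR sedentary rat 6 and LCR sedentary rat 5, and -0.388 without HCR sedentary rat 5).

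**Figure D3:**
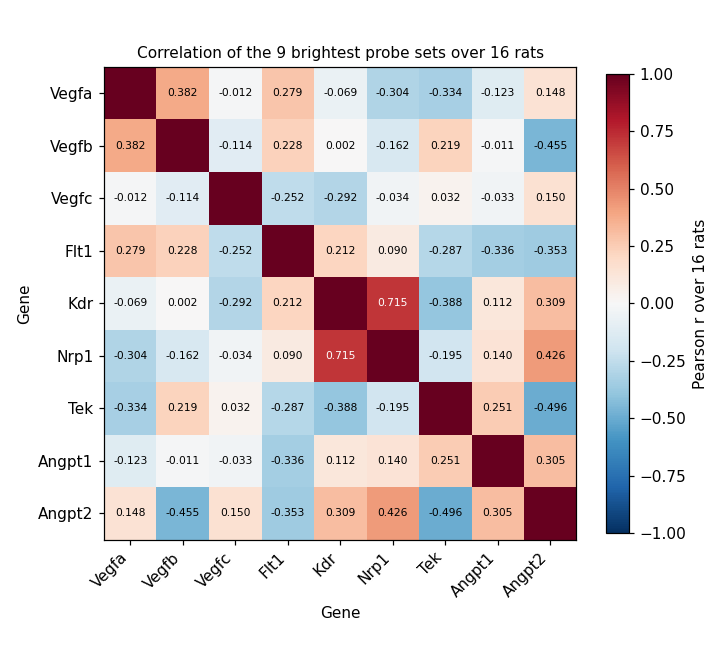
Pearson r over the 16 rats between the representative probe sets of the 9 genes (both axes; colour from -1 to 1, with r printed in each cell). Over all 16 rats Kdr with Nrp1 (0.715) is the highest, and 19 of the 36 pairs are negative. Without HCR sedentary rat 5, which is not drawn, Vegfa with Vegfb (0.737) was above Kdr with Nrp1 (0.712).

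Outside the axis, the 3 genes whose level followed Vegfa most closely over the 16 rats were Trim63, a ubiquitin ligase of muscle (r = 0.863, and 0.831 within groups), Actr3b (0.861 and 0.676) and Eva1c (0.852 and 0.804). For Kdr they were Adamts9, a secreted metalloprotease (0.863 and 0.773), Ceacam9 (0.860 and 0.807) and Cdk18 (0.805 and 0.738). These are the top of 14217 genes ranked by r on the same arrays, are given as a description, and carry no test.

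A score of the 14 endothelial markers, the mean of their values after each gene was centred over the rats, ran from -0.034 to 0.11 in HCR sedentary, -0.063 to 0.13 in HCR trained, -0.12 to 0.015 in LCR sedentary and -0.11 to 0.06 in LCR trained rats, and 0 of its 14 genes passed in the sedentary line comparison by limma (2 at an unadjusted p under 0.05). Angpt2 followed it at r = 0.577 (permutation p = 0.0197, adjusted 0.106 over 9 genes; rho = 0.559, permutation p = 0.0265, adjusted 0.119; r = 0.389 without HCR trained rat 4 and LCR sedentary rat 6, and 0.738 without HCR sedentary rat 5). Vegfc followed it at r = 0.561 (permutation p = 0.0234, adjusted 0.106; rho = 0.574, permutation p = 0.0218, adjusted 0.119; r = 0.777 without the same 2 rats). For the receptors made by endothelium r was 0.244 for Kdr, -0.138 for Flt1 and -0.0663 for Tek (permutation p = 0.362, 0.611 and 0.806; rho = 0.259, -0.2 and -0.115; r = -0.0436, -0.334 and 0.181 without those rats). Among mural cell markers, Acta2 (0.35 ± 0.09, adjusted p = 0.0421) and Notch3 (0.34 ± 0.08, adjusted p = 0.036) were higher in HCR than LCR sedentary rats, 2 of 10 in that list. Both calls ended without rat 5 (0.28 ± 0.09, adjusted p = 0.126, and 0.33 ± 0.09, adjusted p = 0.0969). The mural score was -0.063 to 0.097 in HCR, or -0.063 to 0.043 without rat 5, and -0.2 to 0.015 in LCR sedentary rats.

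The scores of 3 other cell types did not overlap between HCR and LCR sedentary rats. The endothelial, mural, cardiomyocyte, macrophage, lymphatic, erythroid and skeletal muscle scores did. Of all probe sets, 18.3% were fully separated in this comparison. A score averages several genes, so that share of single probe sets is not its expected rate. The score of 8 fibroblast markers was -0.21 to 0.036 in HCR and 0.037 to 0.22 in LCR, ranges that almost touched. That of 4 adipocyte markers was 0.029 to 0.11 and -0.14 to -0.022. That of the 3 measured of 5 neuron and Schwann cell markers was 0.081 to 0.21 and -0.2 to -0.082. Without rat 5 the HCR ranges were -0.21 to 0.036, 0.029 to 0.11 and 0.081 to 0.15. Among their genes, Lum, a matrix proteoglycan of fibroblasts, was lower in HCR (-0.41 ± 0.11, adjusted p = 0.0403), a call that ended without rat 5 (-0.45 ± 0.11, adjusted p = 0.0825), and Chl1, a neural adhesion molecule, was higher (0.37 ± 0.06, adjusted p = 0.0139; without rat 5 0.37 ± 0.07, adjusted p = 0.0468). The part of the mural, fibroblast, adipocyte and neural scores in any member's value was not tested.

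Of the 78 measured genes of 5 lists around the axis, 5 passed in sedentary rats, or 6.41%, against 895 of 14217 genes, or 6.3%. Over both training states 3 of 78 passed, or 3.85%, against 700 of 14217, or 4.92%. The 5 lists were chosen with earlier results of these data known, so these shares are a description and carry no test. Of 14 measured ligands, receptors and co-receptors outside the 9, 1 was higher in HCR than LCR sedentary rats, 0 were lower and 13 did not pass. It was Pgf, placental growth factor, a ligand of VEGFR1, which read 6.12, 6.33, 6.31 and 6.16 in HCR sedentary rats 3 to 6 and 6.00, 5.90, 6.00 and 5.93 in LCR sedentary rats 2, 3, 5 and 6. These groups did not overlap, and the difference was 0.28 ± 0.07 (0.12 to 0.43), 1.21-fold, with an adjusted p of 0.0463. In trained rats Pgf differed by 0.02 (-0.14 to 0.18, adjusted p = 0.989), and the interaction was -0.26 ± 0.11 (adjusted p = 0.489). Its other probe set, 1368918_at, gave 0.10 ± 0.08 in sedentary rats (adjusted p = 0.396). The Pgf call ended in 10 of the 16 analyses that left out 1 array: HCR sedentary rats 4, 5 and 6, HCR trained rats 3 and 5, LCR sedentary rats 2, 3, 5 and 6, and LCR trained rat 3, with adjusted p from 0.0523 to 0.132, the highest without HCR sedentary rat 5 (0.25 ± 0.08). It also ended with arrays centred on their medians (0.22, adjusted p = 0.0582), with quantile normalization (0.24, adjusted p = 0.0824) and with an intensity trend (adjusted p = 0.0545). Gpc1, a heparan sulfate proteoglycan, was lower in HCR over both training states (-0.16 ± 0.04, adjusted p = 0.0488), a call that ended without any one of 14 arrays, all but HCR sedentary rat 3 and LCR trained rat 3 (adjusted p from 0.05003 to 0.0995, the highest without HCR sedentary rat 5), and with quantile normalization (-0.10, adjusted p = 0.208).

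Of 23 measured genes of VEGFR2 and Tie2 signalling, 1 was higher in HCR sedentary rats and 22 did not pass. It was Pik3r1, the regulatory subunit of phosphoinositide 3-kinase, at 0.86 ± 0.23 (0.37 to 1.35), 1.81-fold, adjusted p = 0.0462. HCR sedentary rats 3 to 6 read 7.49, 7.67, 6.62 and 7.26 and LCR sedentary rats 6.85, 6.37, 6.04 and 6.34, with HCR sedentary rat 5 inside the LCR range, and without that rat the difference was 1.07 ± 0.22 (adjusted p = 0.0485). The call ended without HCR sedentary rats 3, 4 or 6, HCR trained rat 5, LCR sedentary rats 3, 5 or 6, or LCR trained rat 3, each left out alone (adjusted p from 0.0516 to 0.131), and with quantile normalization (0.90, adjusted p = 0.0589). None of the 15 measured genes that endothelium turns on under VEGF and Notch signals passed in this comparison by limma (3 at an unadjusted p under 0.05), nor did any of the 14 measured regulators of Vegfa (3 at that level). Of those regulators, 12 of 14 differences were below 0 in sedentary rats, with a median of -0.093, against 53.6% of all genes with a median of -0.018. In trained rats 7 were above and 7 below 0. The list was not split into genes that raise and genes that lower Vegfa, so these counts carry no direction for Vegfa.

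Of 12 targets of the hypoxia response, the programme that also induces Vegfa, 2 were higher, 1 was lower and 9 did not pass in sedentary rats. Car9, a carbonic anhydrase (0.41 ± 0.09, adjusted p = 0.0261), and Ndrg1, a stress-responsive gene (0.34 ± 0.08, adjusted p = 0.035), were higher in HCR, while Ddit4, an inhibitor of mTORC1 signalling (-0.85 ± 0.16, adjusted p = 0.0201), was lower. The other Ndrg1 probe set, 1391458_at, gave 0.20 ± 0.08 in sedentary rats (limma adjusted p = 0.109), with overlapping groups. Car9 was dim, with group means of 5.95 in HCR and 5.54 in LCR sedentary rats, near the median level of 5.9. The Car9 call ended without HCR sedentary rats 4, 5 or 6 or LCR sedentary rat 6 (adjusted p from 0.0515 to 0.0808; 0.42 ± 0.10 and 0.0683 without rat 5). That of Ndrg1 ended without HCR sedentary rats 3, 4 or 6 or LCR sedentary rats 3, 5 or 6 (0.0528 to 0.102) and with arrays centred on their medians (0.28, adjusted p = 0.0546), and was kept without HCR sedentary rat 5 (0.41 ± 0.08, adjusted p = 0.0454). That of Ddit4 ended without HCR sedentary rats 4 or 5 or LCR sedentary rat 6 (0.0612 to 0.071; -0.83 ± 0.18 and 0.0612 without rat 5). Over both training states Car9 (0.24 ± 0.06, adjusted p = 0.0401) and Ddit4 (-0.54 ± 0.12, adjusted p = 0.0217) passed, and the Car9 call ended without any one of 9 arrays, HCR sedentary rats 4, 5 and 6, HCR trained rats 5 and 6, LCR sedentary rats 2 and 6 and LCR trained rats 3 and 4 (0.0534 to 0.0831; 0.25 ± 0.07 and 0.0668 without rat 5), and with quantile normalization (0.21, adjusted p = 0.0606). That of Ddit4 held without rat 5 (-0.53 ± 0.12, adjusted p = 0.0461). In trained rats, for training in either line and for the interaction, 0 genes of these 5 lists passed in the limma fit. At an unadjusted p under 0.05 the ligand and receptor, signalling, endothelial target, Vegfa regulator and hypoxia target lists had, in that order, 3, 2, 0, 1 and 1 genes for the line in trained rats. They had 1, 5, 3, 1 and 1 genes for training in HCR and 2, 5, 1, 0 and 3 for training in LCR. For the interaction they had 1, 2, 1, 0 and 3. The lists held 14, 23, 15, 14 and 12 measured genes. Of all 14217 genes, 1194 passed at that level for the line in trained rats and 2091 for training in HCR. For training in LCR 962 passed, for the interaction 1515 and for the line in sedentary rats 4469.

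**Figure D4:**
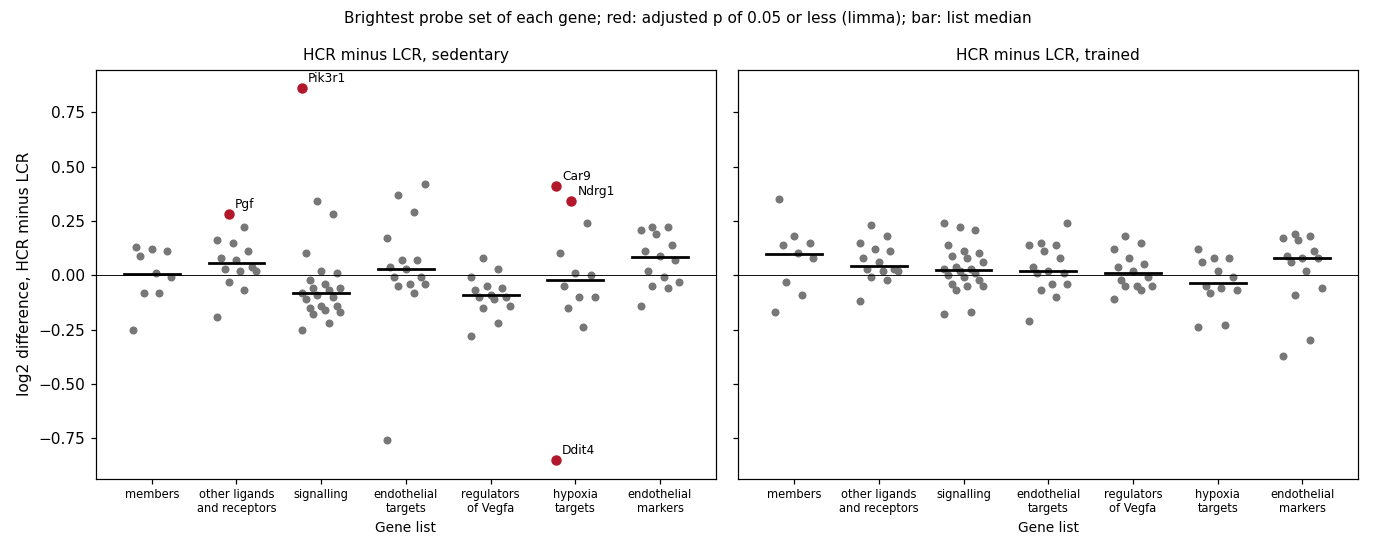
Log2 difference of HCR from LCR rats (vertical axis) by gene list (horizontal axis), in separate panels for sedentary and trained rats. The lists are the 9 members, the 5 surrounding lists and the endothelial markers, with 1 point per gene on its representative probe set. Red points passed a limma adjusted p of 0.05, and bars are list medians. In sedentary rats Pgf (0.28), Pik3r1 (0.86), Car9 (0.41), Ndrg1 (0.34) and Ddit4 (-0.85) passed, and 0 of the 9 members did. In trained rats no point passed.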

How the data were processed

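Total RNA from 20 mg of ventricle was hybridised to the arrays, per the labels' protocols. The authors deposited log2 expression values (base not stated, taken as log2 from their range of 3.24 to 14.54) made by RMA, per the design text. The submitters' processing notes list RMA and limma and give no version. RMA corrects background, quantile-normalizes perfect-match probes and summarises each probe set. Scan dates and batches are not given in the sources used here. Of 31099 probe sets, 57 controls were left out. The annotation gave 20826 of the others 1 symbol, 436 several and left 9780 unlisted. Groups came from the sample titles, which number separate rats. Models were fitted per probe set (limma 3.58.1, R 4.3.3) on all 16 arrays (1 mean per group, 12 residual degrees of freedom, no covariate, no filter), and the fit was tested on simulated data. P-values were two-sided and Benjamini-Hochberg adjusted over 31042 probe sets within each comparison. Values after ± are SE unless marked SD, and the 4 arrays per group limit the precision. Correlation p-values came from 100000 permutations. The members and gene lists were chosen with earlier results of these data known. The text names all members, up to 6 called genes per list and comparison, largest first, and the 3 genes most correlated with Vegfa and with Kdr. Alternatives were array centring, quantile normalization, a filter at the median level, 1 probe set per gene, an intensity trend, array weights, a rat-number block, a fit of only the groups compared, and leaving out each array.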

Additional observations from a re-analysis of the deposited data

Results flagged for a closer look

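In 4 of 56 groups of member values 1 rat lay far from the other 3 by Dixon's ratio, the gap to the nearest rat over the range of the group, at its 95% critical value for 4 rats. Chance passes that limit in about 1 in 20 groups. HCR trained rat 4 read 10.64 for Vegfb against 10.85 to 10.88 in the others (ratio 0.872). LCR trained rat 2 read 7.20 for Vegfc against 7.42 to 7.43 (0.942). For Flt1 on 1377113_at, LCR sedentary rat 3 read 7.00 against 6.35 to 6.42 (0.894) and LCR trained rat 3 read 6.99 against 6.50 to 6.51 (0.967).

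Of the called genes of the surrounding lists, HCR trained rat 6 read 6.90 for Ddit4 against 7.65 to 7.68 (0.964) and 11.13 for Gpc1 against 11.07 to 11.08 (0.94). HCR sedentary rat 5 read 4.54, 4.36, 3.76 and 4.94 on the 4 Xist probe sets, with ratios of 0.852, 0.984, 0.987 and 0.967. Xist also set LCR sedentary rat 2 apart on 1377971_at (8.25 against 8.12 to 8.14, ratio 0.857) and HCR trained rat 6 on 1386785_a_at (7.99 against 8.91 to 9.09, ratio 0.835).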

How the results depend on the processing

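The count of member probe sets called for the sedentary line difference was 0, and it was 1 (Vegfa 1373807_at) with arrays centred on their medians, with array weights, with the replicate block and with only the 2 groups compared, and 0 to 1 when 1 array was left out. In the other 6 comparisons it stayed 0 in every alternative run. Over 98 member differences and 2254 alternative values, 5 were called, all of them the Vegfa difference. A change of direction was counted only for the 39 differences larger than their SE. Of these, 1 changed sign: the sedentary line difference of Kdr 1397868_at went from 0.07 to 0 with quantile normalization (adjusted p = 0.999), and the cause was not tested. Among the differences within 1 SE there were 114 changes of sign. The count of correlated member pairs was 0, became 1 with quantile normalization and ran from 0 to 2 with 1 array left out (1 without HCR sedentary rat 3 or HCR trained rat 3, 2 without LCR trained rat 2). For 16 pairs of rats of one number in different groups, the deviations from the group means correlated at r of -0.231 to 0.339. The median was 0.0355, against -0.00639 for other pairs, and 6 of 16 were over 0.1. Whether rats of one number deviate together was not tested, and the main fit did not take the numbers as pairs. The replicate block took the Vegfa sedentary difference to -0.28 (adjusted p = 0.0411) and changed no other member's call. With it, the calls over both training states became Car9 0.23 (adjusted p = 0.105), Ddit4 -0.47 (adjusted p = 0.082) and Gpc1 -0.17 (adjusted p = 0.0869). Leaving out HCR sedentary rat 5 was, for marker genes, scores and correlations with marker scores or array range, chosen after seeing the data. The filter and the choice of 1 probe set per gene dropped the dimmer member probe sets, which then have no value. With 4 arrays per group, the 95% intervals bound what could be seen, and Angpt1, Kdr 1397868_at and Flt1 1370492_a_at lay below the median level.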

Other observations

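Some genes around the axis had sizeable differences without passing the adjusted threshold, and they are named here after their values were seen. Esm1, which encodes the endothelial proteoglycan endocan and marks tip cells, differed by -0.76 ± 0.23 between HCR and LCR sedentary rats (limma adjusted p = 0.0647) and by 0.24 in trained rats (adjusted p = 0.91). Training gave 0.23 for it in HCR (adjusted p = 0.668; 0.38 ± 0.24 and 0.642 without HCR sedentary rat 5) and -0.77 in LCR (adjusted p = 0.62). Vegfd, a ligand of VEGFR3, differed by 0.22 ± 0.09 (adjusted p = 0.13) and Ptprb, the endothelial phosphatase that acts on Tie2, by 0.15 ± 0.07 (adjusted p = 0.155) in sedentary rats. Without HCR sedentary rat 5 these 3 differences were -0.91 ± 0.24 (adjusted p = 0.0913), 0.19 ± 0.10 (adjusted p = 0.283) and 0.15 ± 0.07 (adjusted p = 0.255). In trained rats the line differences of these were 0.03 (adjusted p = 0.987) and 0.18 (adjusted p = 0.546).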
